A study of Mus musculus with 5 samples.

Results

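The dual-specificity MAP kinase phosphatases were followed through 10 mouse genes, Dusp1, Dusp2, Dusp3, Dusp4, Dusp5, Dusp6, Dusp7, Dusp10, Dusp16 and Dusp22, out of 18193 genes measured. Every probe set annotated to one of these symbols alone was taken, which gave 16 probe sets of 45037, and all 10 genes had at least 1. The arrays compared brain dendritic cells (DCs), on 2 arrays, with bone marrow monocytes, on 3 arrays, all from female C57BL/6 mice aged 6 to 8 weeks. The brain DCs were sorted as Lin-CD45hiCD11c+ cells from mice that carried a subcutaneous B16-Flt3L tumour, grown over the 12 days after inoculation. That melanoma line secretes Flt3 ligand, a growth factor that expands dendritic cells. The monocytes were sorted as SSCloCD11bhi CD115+ cells, and their labels give no treatment. Cell type, tissue and tumour treatment therefore differ together between the groups and cannot be told apart, and the microglia and spleen DCs named in the study's design were not used here. Whether each array came from its own animals is not stated, so every p-value reflects spread among the 5 arrays alone, which may be technical.

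MAP kinases (ERK, JNK and p38) carry signals from surface receptors to the nucleus and are switched on by phosphates on a threonine and a tyrosine of the same loop. The dual-specificity phosphatases remove both phosphates and so switch the kinase off. Several of them are themselves transcribed within minutes of MAP kinase activation and act as negative feedback, and in macrophages and dendritic cells they limit cytokine production after Toll-like receptor stimulation. Dusp1, Dusp2, Dusp4 and Dusp5 encode inducible nuclear enzymes, Dusp6 and Dusp7 cytoplasmic enzymes that prefer ERK, Dusp10 and Dusp16 enzymes that prefer JNK and p38, and Dusp3 and Dusp22 small atypical enzymes without the MAP kinase-binding domain.

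The 10 genes did not all go the same way between brain DCs and monocytes. Dusp16, Dusp5, Dusp2, Dusp1 and Dusp10 were higher in brain DCs, Dusp7 and Dusp22 were lower, and Dusp3, Dusp4 and Dusp6 did not pass the test. The 5 higher genes are 5 of 10, where 16.9% of all 18193 genes were called higher. The 2 lower genes are 2 of 10, near the 16.9% of all genes that were called lower. The count of lower genes was 1 with brain DC replicate 2 left out, when Dusp22 lost its call, and 3 with monocyte replicate 3 left out, when Dusp6 was called. The median difference of the 10 genes was 1.47 on the log2 scale, brain DC minus monocyte, against 0.09 over all genes. The groups did not overlap in 8 of the 10 genes, where 60.2% of all genes did not overlap. Throughout, a value is the log2 signal of a gene's probe sets measured from their own baseline, which allows arrays to be compared but not the levels of different genes. Genes were called at a limma adjusted p under 0.05 over all genes, each difference is given with its SE from that fit (brain DC n = 2, monocyte n = 3), and the number of arrays limits the precision. In sorted bulk samples such as these, fewer cells of a type and less RNA per cell cannot be told apart.

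**Figure D1:**
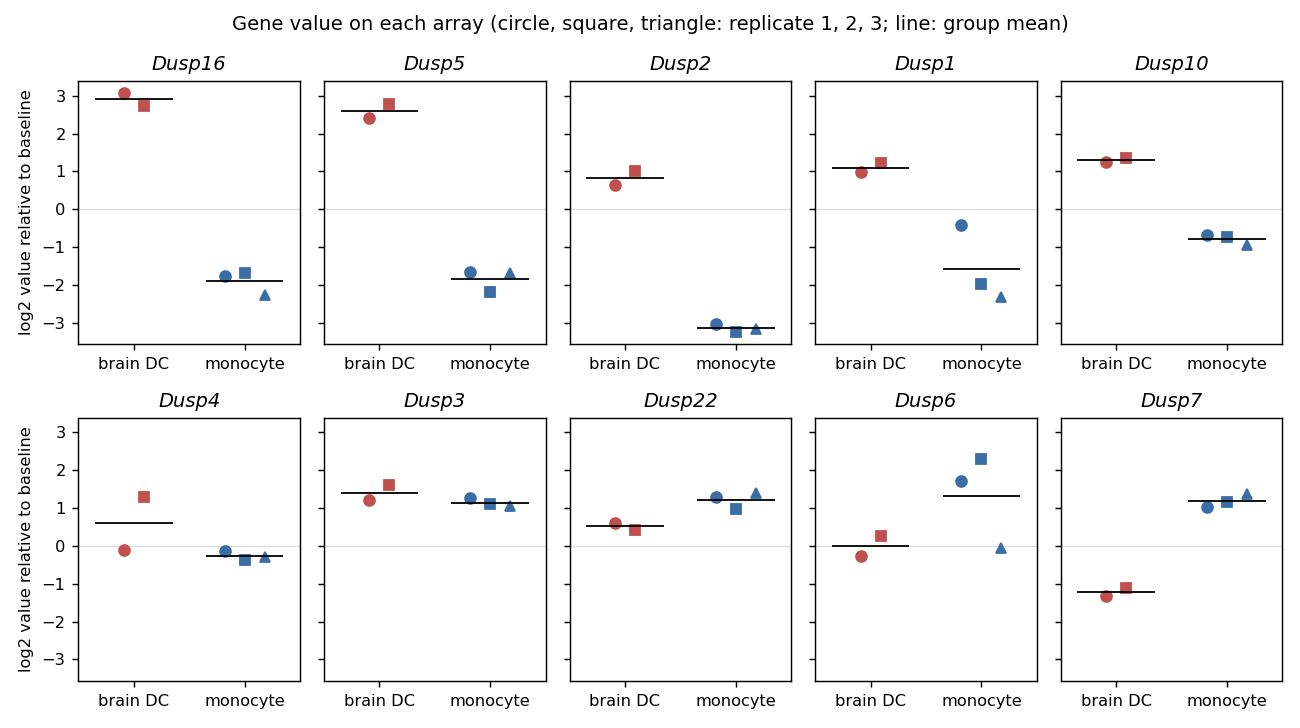
Gene value on each array, as log2 relative to the probe sets' baseline (y axis), for brain DC and monocyte arrays (x axis), 1 panel per gene in order of the difference; symbols mark replicates and lines group means. The 5 genes of the upper row separate completely with brain DCs on top, while Dusp4, Dusp3 and Dusp6 have arrays of 1 group inside or next to the range of the other.

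Listed markers of both labelled cell types went the way of the labels. All 8 dendritic cell markers were higher and all 7 measured monocyte markers lower in brain DCs. Among them, Itgax encodes CD11c, and Itgam and Csf1r encode CD11b and CD115, on which the cells were sorted. Those genes are therefore no separate evidence for the labels. The monocyte list also held Cd177 (-5.67), a gene of neutrophils as well. Of 7 markers of neutrophils and their precursors, 4 were lower in brain DCs too and 3 were not called. All 7 measured genes listed as microglial markers were also higher in brain DCs. Their median value was 1.42 and 1.32 in brain DCs, against -0.24, -0.27 and -0.25 in monocytes. That count depends on how shared genes were assigned. Cx3cr1 (-2.56) and Csf1r (-1.40), counted here as monocyte markers and lower in brain DCs, are genes of microglia as well. Siglech, counted as microglial, is also a gene of plasmacytoid DCs. Also higher were 2 of 9 markers of choroid plexus, neural and endothelial cells (Ttr and Cldn5), 2 of 5 of natural killer cells (Klrd1 and Gzma) and 1 of 5 of B and T cells (Ms4a1). Of all genes, 16.9% were called higher and 16.9% lower, and the counts of 2 of 9 and 1 of 5 are near that share. The part of these other cell types in the differences of the phosphatase genes was not tested. The difference between 3′ and 5′ control probe sets, which varies with RNA integrity and labelling, was lower in brain DCs than in monocytes by log2 differences of -3.43 for beta-actin and -2.92 for Gapdh, and by -0.60, -0.21 and -0.10 for 3 other control transcripts. For beta-actin it was -0.16 and -0.31 in brain DCs, against 3.99, 3.98 and 1.60 in monocytes, so monocyte replicate 3 stood apart from the other monocyte arrays. Replicate 3 was also the lowest monocyte array for Gapdh (2.78, 2.86 and 2.28) and 18S RNA (0.17, 0.69 and -1.53). It was the highest for pyruvate carboxylase and the transferrin receptor. Each probe set has its own baseline, so these values compare arrays and are not ratios of 3′ to 5′ signal. The part of these control differences in the phosphatase differences was not tested either.

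Among the inducible nuclear enzymes, Dusp5, Dusp2 and Dusp1 were higher in brain DCs and Dusp4 differed between the 2 brain DC arrays. Dusp5, a nuclear phosphatase that acts on ERK alone and anchors it in the nucleus, read 2.40 and 2.79 in brain DCs, against -1.67, -2.19 and -1.70 in monocytes. The groups did not overlap, and the gap between them was much wider than the spread within either. The difference was 4.45 ± 0.20, or 21.8-fold (limma adjusted p = 9.96e-06). Dusp2, a phosphatase of ERK and p38 found mainly in blood cells, read 0.64 and 1.01 in brain DCs, against -3.03, -3.25 and -3.15 in monocytes. Its monocyte values lay within 0.23 of each other, far below both brain DC values. It was 15.7-fold higher (3.97 ± 0.16, limma adjusted p = 4.89e-06).

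Dusp1, the phosphatase that restrains p38 and JNK in myeloid cells after Toll-like receptor stimulation, was higher in brain DCs with a wide spread among monocytes. It read 0.97 and 1.21 in brain DCs, against -0.43, -1.98 and -2.32 in monocytes. The groups did not overlap, but monocyte replicate 1 lay well above the other monocyte arrays, and the monocyte SD of 1.01 was larger than that of 99.9% of genes. The difference was 2.66 ± 0.49, or 6.34-fold (limma adjusted p = 0.00523). Without monocyte replicate 1 it was 3.24 (limma adjusted p = 0.000146). The same array stood apart in the median of 7 markers of neutrophils and their precursors, which was 0.54 and 0.65 in brain DCs, against 0.98, 2.50 and 2.37 in monocytes. It did not stand apart in 1 of them, Mmp8 (4.87, 4.19 and 4.90 in monocytes). Of the 7, 4 were lower in brain DCs, where 16.9% of all genes were called lower. The other 3, Ngp (1.25), Ltf (0.92) and Camp (1.33), had differences in the other direction and were not called. The part of these markers in the Dusp1 spread was not tested.

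Dusp4, a nuclear phosphatase of ERK and JNK, read -0.11 and 1.30 in brain DCs, against -0.14, -0.38 and -0.29 in monocytes. Brain DC replicate 1 was just above the highest monocyte value and replicate 2 far above them, and the brain DC SD of 1.00 exceeded that of 99.7% of genes. The difference of 0.87 ± 0.36 was not called (limma adjusted p = 0.104). With brain DC replicate 1 left out it became 1.57 and was called (limma adjusted p = 0.00137). With brain DC replicate 2 left out it was 0.16 (limma adjusted p = 0.509), so 1 array decided the value.

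Sequence windows before the start of the gene were available for 9 of the 10 genes from RefSeq on GRCm38.p6, each reaching from 250 bases before to 50 bases after the annotated start, and were searched on both strands for 4 motifs of stimulus-responsive genes. These were the cyclic AMP response element (CRE, TGACGTCA), the AP-1 site (TGANTCA), the EGR site (GCGNGGGCG) and the CArG box, which binds serum response factor. The window of Dusp5 held 2 CArG boxes, next to each other with no shared base, where 1.63% of 32851 promoter windows held any and 6 of them, or 0.0183%, held more than 1. The window of Dusp1 held 1 CRE, found in 1.79% of windows. An EGR site, found in 5.55% of windows, was present once each in Dusp2, Dusp16 and Dusp22, of which Dusp22 was lower in brain DCs. No AP-1 site, found in 7.81% of windows, was present in any of the 9, and Dusp3, Dusp6, Dusp7 and Dusp10 held none of the 4 motifs. A match is a run of letters and not evidence of binding. The windows of the 4 genes that carry a match and were higher in brain DCs are shown 5′ to 3′ on the gene's strand, with the matches in capitals.
Dusp5, GRCm38.p6 chr19:53528895-53529194, plus strand: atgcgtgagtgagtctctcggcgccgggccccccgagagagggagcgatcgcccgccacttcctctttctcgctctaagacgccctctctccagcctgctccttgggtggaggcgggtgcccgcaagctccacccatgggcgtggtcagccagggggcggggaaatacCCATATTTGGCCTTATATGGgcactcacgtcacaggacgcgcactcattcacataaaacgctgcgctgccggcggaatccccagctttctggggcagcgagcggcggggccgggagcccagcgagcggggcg
Dusp1, GRCm38.p6 chr17:26508423-26508722, minus strand: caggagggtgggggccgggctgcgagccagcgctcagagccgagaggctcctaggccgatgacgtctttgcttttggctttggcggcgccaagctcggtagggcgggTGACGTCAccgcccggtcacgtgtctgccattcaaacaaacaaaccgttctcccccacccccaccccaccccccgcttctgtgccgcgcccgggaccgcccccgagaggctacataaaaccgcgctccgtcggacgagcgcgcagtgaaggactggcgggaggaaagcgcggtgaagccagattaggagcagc
Dusp2, GRCm38.p6 chr2:127335909-127336208, plus strand: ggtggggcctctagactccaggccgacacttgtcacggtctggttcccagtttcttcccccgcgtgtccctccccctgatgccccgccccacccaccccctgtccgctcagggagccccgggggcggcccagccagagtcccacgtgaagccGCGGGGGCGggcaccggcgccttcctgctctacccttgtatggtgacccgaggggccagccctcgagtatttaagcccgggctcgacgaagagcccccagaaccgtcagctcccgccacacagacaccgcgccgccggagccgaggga
Dusp16, GRCm38.p6 chr6:134792579-134792878, minus strand: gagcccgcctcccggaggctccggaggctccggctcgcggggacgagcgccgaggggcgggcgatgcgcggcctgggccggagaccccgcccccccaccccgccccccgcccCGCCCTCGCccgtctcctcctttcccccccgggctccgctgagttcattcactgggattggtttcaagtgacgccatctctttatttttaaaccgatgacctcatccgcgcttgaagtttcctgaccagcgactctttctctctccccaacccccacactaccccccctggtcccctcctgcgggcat

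The boxes of Dusp5 lay from -82 to -73 and from -72 to -63 relative to the start, the CRE of Dusp1 from -143 to -136, the EGR site of Dusp2 from -98 to -90 and that of Dusp16, on the opposite strand, from -138 to -130.

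The enzymes that prefer JNK and p38 were both higher in brain DCs. Dusp16, a phosphatase that shuttles between nucleus and cytoplasm and acts on JNK, had the largest difference of the 10, 4.81 ± 0.20, or 28.1-fold (limma adjusted p = 6.79e-06). Its gene value was 3.07 and 2.74 in brain DCs, against -1.77, -1.69 and -2.26 in monocytes. The groups lay wide apart, and this difference was the 39th largest increase among all genes. Its probe sets 1418401_a_at and 1440615_at gave differences of 4.82 and 4.81, and the test of unequal differences did not pass (-0.01 ± 0.28, limma adjusted p = 0.986).

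Dusp10, a phosphatase of JNK and p38, read 1.24 and 1.34 in brain DCs, against -0.68, -0.73 and -0.95 in monocytes. Arrays of the same group lay close together and the groups did not overlap. It was 4.21-fold higher (2.07 ± 0.14, limma adjusted p = 5.22e-05). The size depended on the probe set: 1417164_at gave 3.09 and 1417163_at gave 1.06, both called, and the 2 differences were themselves unequal (2.03 ± 0.46, limma adjusted p = 0.0203 over 30372 pairs of probe sets of the same gene, of which 23.0% were called). The test of unequal probe sets was chosen after the data were seen.

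Of the cytoplasmic enzymes that prefer ERK, Dusp7 was lower in brain DCs and Dusp6 did not pass the test. Dusp7 read -1.32 and -1.11 in brain DCs, against 1.02, 1.17 and 1.38 in monocytes. Every brain DC value was below every monocyte value. Dusp7 was 5.30-fold lower (-2.40 ± 0.15, limma adjusted p = 4.39e-05), the largest decrease among the 10. Its probe sets did not agree on the size. On 1452097_a_at it read -1.79 and -1.82 in brain DCs, against 1.49, 1.52 and 1.88 in monocytes, a difference of -3.43, and 1427416_x_at gave -3.39. On 1460393_a_at it read -0.35 and -0.06 in brain DCs, against -0.09, 0.62 and 0.03 in monocytes, and the difference of -0.39 was not called (limma adjusted p = 0.272). The third probe set differed from 1452097_a_at by 3.04 ± 0.31 (limma adjusted p = 0.00171) and from 1427416_x_at by 3.00 ± 0.41 (limma adjusted p = 0.00373). Where on the transcript each probe set lies is not given in the files, and the part of the 3′ to 5′ shift between the groups in this was not tested.

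Dusp6, the feedback phosphatase of ERK in the cytoplasm, read -0.28 and 0.26 in brain DCs, against 1.71, 2.29 and -0.05 in monocytes. Monocyte replicates 1 and 2 were above both brain DC arrays and replicate 3 lay between them, so the groups overlapped. The monocyte SD of 1.22 was larger than that of all but a few genes (99.97% were smaller), and the difference of -1.33 ± 0.60 was not called (limma adjusted p = 0.131). Without monocyte replicate 3 it was -2.01 and was called (limma adjusted p = 0.00233), and without monocyte replicate 2 it was -0.84 (limma adjusted p = 0.297). Monocyte replicate 3 is also the monocyte array with the lowest 3′ minus 5′ value of beta-actin, 1.60, though not of every control transcript. The part of the control difference in the Dusp6 value was not tested.

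The atypical enzymes showed small differences. Dusp22, a small phosphatase of the JNK pathway, read 0.60 and 0.43 in brain DCs, against 1.29, 0.99 and 1.39 in monocytes. The groups did not overlap, and the gene was 1.63-fold lower in brain DCs (-0.70 ± 0.16, limma adjusted p = 0.0122). Dusp22 no longer passed the test when brain DC replicate 2 was left out (-0.62, limma adjusted p = 0.0616) and with quantile normalisation of the 5 arrays (-0.51, limma adjusted p = 0.0505). Dusp3, a small phosphatase that acts on ERK and JNK, read 1.22 and 1.60 in brain DCs, against 1.26, 1.10 and 1.06 in monocytes. Brain DC replicate 1 lay inside the monocyte range, and the difference of 0.27 ± 0.15 was not called (limma adjusted p = 0.226). It was 0.46 without brain DC replicate 1 and 0.08 without brain DC replicate 2. Of its 3 probe sets, 1456769_at was called higher (0.78, limma adjusted p = 0.0140), while 1434472_at at 0.15 and 1425608_at at -0.13 were not called. The pairs of Dusp3 probe sets did not pass the test of unequal differences (limma adjusted p from 0.0546 to 0.447). Only Dusp3, Dusp7, Dusp10 and Dusp16 had more than 1 probe set, and 3 of their 8 pairs passed it, where 23.0% of all 30372 pairs did. Those 3 were of Dusp7 and Dusp10, and the passing pairs of Dusp7 shared 1460393_a_at.

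**Figure D2:**
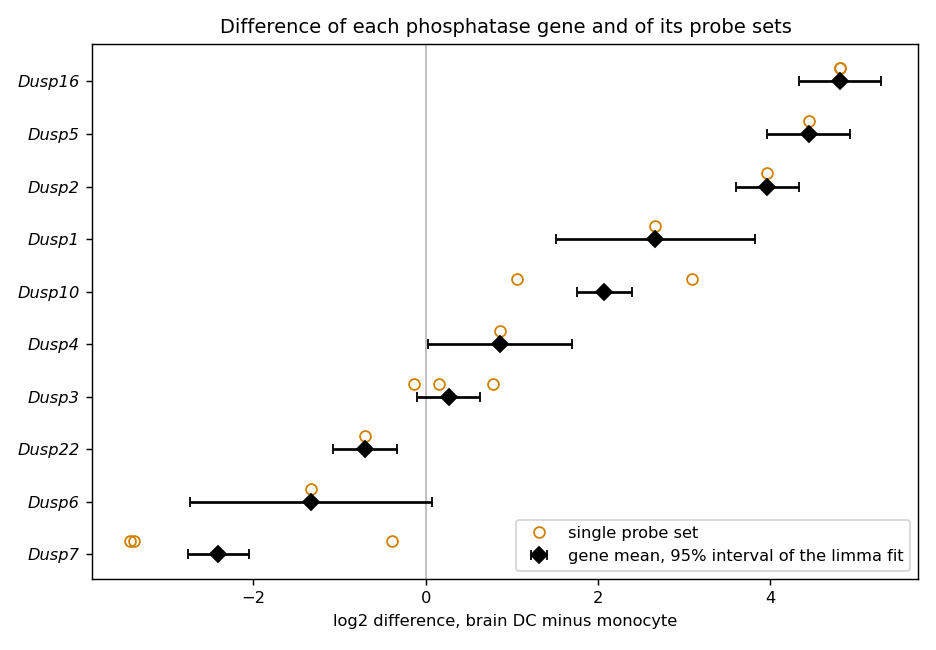
Log2 difference, brain DC minus monocyte (x axis), for each phosphatase gene (y axis), as the gene mean with its 95% interval from the limma fit (diamonds) and for single probe sets (open circles). The 2 probe sets of Dusp16 coincide near 4.8, those of Dusp10 lie at 1.06 and 3.09, and 1 of the 3 of Dusp7 lies at -0.39, far from the others.

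Over single probe sets, 8 of the 16 were higher in brain DCs, where 12.2% of all 45037 probe sets were, and 3 were lower, where 15.5% of all were. In the order of the gene differences, Dusp16, Dusp5, Dusp2, Dusp1 and Dusp10 had 95% intervals that overlapped from each gene to the next. The interval of Dusp10 (1.75 to 2.39) lay above that of Dusp4 (0.03 to 1.70), and that of Dusp3 (-0.10 to 0.63) lay above that of Dusp22 (-1.07 to -0.33). The intervals of Dusp4 and Dusp3 overlapped, as did those of Dusp22, Dusp6 and Dusp7 from each to the next. Within the brain DCs, 8 of the 10 genes were higher on replicate 2 than on replicate 1, as were 20 of 22 immediate early genes, against 52.6% of all genes. Within the monocytes, replicate 3 was the lowest array for 5 of the 10 genes and for 12 of the 22 immediate early genes, against 34.6% of all genes.

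**Figure D3:**
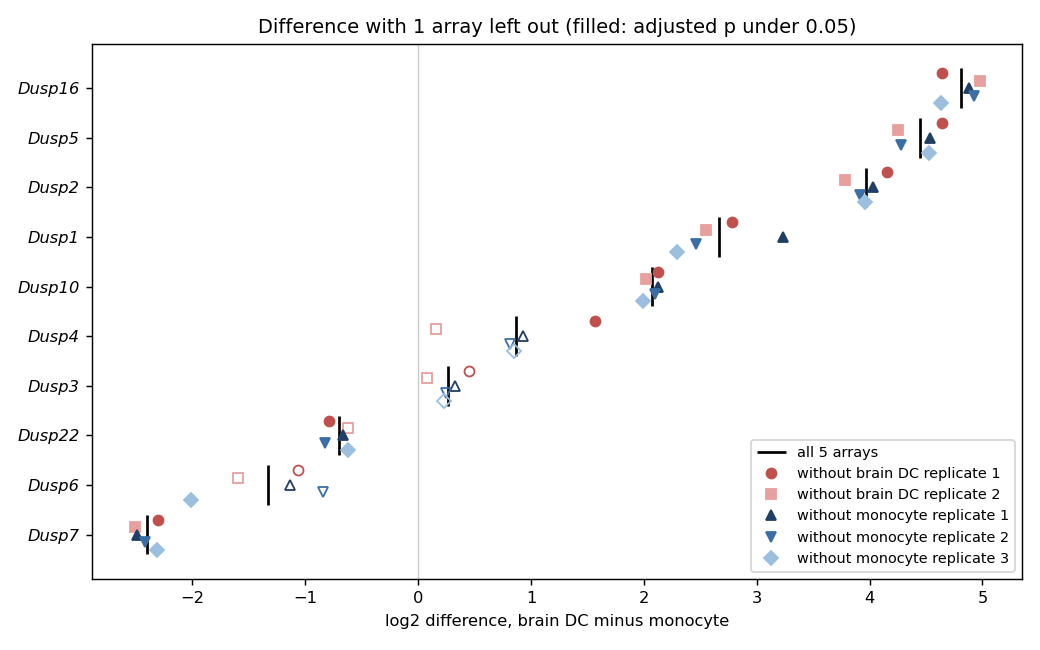
Log2 difference, brain DC minus monocyte (x axis), of each gene (y axis) with all 5 arrays (line) and with each array left out in turn (symbols, filled where the limma adjusted p was under 0.05). Dusp4 moves between 0.16 and 1.57 with the brain DC array left out, and Dusp6 between -2.01 and -0.84 with the monocyte array left out.

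The genes with the pattern most like that of Dusp16 over the 5 arrays, by Euclidean distance after each gene was centred on its own mean, were the platelet chemokine gene Ppbp (distance 0.37), the Ras activator gene Rasgrp3 (0.44) and the tetraspanin gene Cd81 (0.48). Their differences were 4.77, 4.64 and 4.98. For Dusp7 they were Padi4, which encodes a protein-citrullinating enzyme of granulocytes (distance 0.13), Smim5 (0.20) and the ubiquitin ligase gene Rnf217 (0.21), with differences of -2.38, -2.28 and -2.36.

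Of 23 measured dual-specificity and MAP kinase-directed phosphatases outside the 10 genes, 4 were higher, 2 lower and 17 not called, where 16.9% of all genes were called in each direction. The higher count was near that share, and the median difference was 0.23. The higher ones included the ERK-binding tyrosine phosphatase gene Ptprr (0.75 ± 0.21), Dusp18 (0.72 ± 0.15) and Dusp28 (0.56 ± 0.18), all far below the differences of Dusp16, Dusp5 and Dusp2. The lower ones were Ssh2, which encodes a slingshot phosphatase of cofilin (-1.50 ± 0.16), and Ppm1d, a serine phosphatase gene of the p53 response that also acts on p38 (-1.22 ± 0.13). The count of 4 higher became 2 when either brain DC array or monocyte replicate 3 was left out, and 1 when monocyte replicate 2 was. Ptprr lost its call when brain DC replicate 2 (0.49) or either of monocyte replicates 2 and 3 was left out, and Dusp28 when any array other than monocyte replicate 3 was left out. Dusp28 also lost its call with quantile normalisation, with array medians set to 0 and with the probe set of highest mean. Dusp18 was at 1.16 with the probe set of highest mean.

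Of 25 measured kinases that these enzymes act on or that lie upstream, 8 were lower, 2 higher and 15 not called, with a median difference of -0.18. Of all genes, 16.9% were lower and 16.9% higher. Map3k5, an upstream kinase of JNK and p38 activated by stress, read -0.71 and 0.04 in brain DCs, against 1.24, 1.58 and 1.07 in monocytes (-1.64 ± 0.24, limma adjusted p = 0.00199). Mapk7, which encodes ERK5 (-1.27 ± 0.20), and Map3k2, an upstream kinase of ERK5 (-1.27 ± 0.13), were also lower. Map3k2 was at -0.83 with the median over its probe sets and lost its call with the probe set of highest mean (-0.53, limma adjusted p = 0.250). Map2k3, an activator of p38, was higher (1.15 ± 0.13), as was Map2k2, an activator of ERK (0.67 ± 0.18). Mapk14, the p38 alpha gene, was lower by a small amount (-0.45 ± 0.13), and its call was lost when any array other than monocyte replicate 2 was left out, with quantile normalisation and with the median over probe sets, while the probe set of highest mean gave -0.85. Mapk8, a JNK gene, was at 0.02. The 2 higher kinases became 1 when brain DC replicate 2 or monocyte replicate 1 or 2 was left out, and Map2k2 lost its call when any array other than monocyte replicate 3 was.

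Of 17 measured genes that act after MAP kinases, 3 were higher, 6 lower and 8 not called, with a median difference of -0.13, where 16.9% of all genes were called in each direction. The mRNA-destabilising protein genes Zfp36l1 (2.87 ± 0.20) and Zfp36 (1.70 ± 0.26) were higher, as was the transcription factor gene Mef2c (0.42 ± 0.12), whose call was lost whichever array was left out and with plain _at probe sets (0.21), while the median over probe sets gave 0.65 and the probe set of highest mean 0.82. Zfp36l1 was at 1.69 with the probe set of highest mean. Mapkapk3, a kinase activated by p38, was 4.06-fold lower (-2.02 ± 0.15), and the transcription factor genes Elk3 (-1.08 ± 0.13) and Atf2 (-0.84 ± 0.12) were lower. Elk3 lost its call with the probe set of highest mean (-0.62, limma adjusted p = 0.272). Of 16 measured Ras-ERK brakes and scaffolds, 5 were higher, 3 lower and 8 not called, with a median difference of 0.32, against the same 16.9% of all genes in each direction. Errfi1, an inhibitor of the EGF receptor, was higher (1.82 ± 0.12), as were the Raf inhibitor gene Pebp1 (0.67 ± 0.14) and the feedback inhibitor gene Spry1 (0.66 ± 0.19), and the Ras GTPase-activating genes Rasa3 (-2.14 ± 0.15) and Rasa1 (-1.61 ± 0.19) and the ubiquitin ligase gene Cbl (-0.99 ± 0.21) were lower. With the probe set of highest mean, Pebp1 lost its call (0.21, limma adjusted p = 0.463), Errfi1 was at 2.86, as it was with plain _at probe sets, and Rasa1 was at -2.63. The 5 higher brakes became 2 without brain DC replicate 2 or monocyte replicate 1 and 3 without monocyte replicate 2 or 3. Spry1 lost its call when any array other than monocyte replicate 3 was left out, and Cbl without brain DC replicate 1 (-0.73, limma adjusted p = 0.0544).

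Immediate early genes, which like Dusp1, Dusp2 and Dusp5 are induced rapidly through MAP kinases, were mostly higher in brain DCs. Calls were made for 19 of the 22 genes, all 19 of them higher, where 16.9% of all genes were called higher, and the count was 19 with each array left out in turn. Their median difference was 2.20. Egr1 read 0.90 and 1.09 in brain DCs, against -4.31, -4.03 and -4.84 in monocytes. Fos read -0.14 and 0.02 in brain DCs, against 0.45, 0.39 and 0.11 in monocytes, and was not called (-0.38 ± 0.15, limma adjusted p = 0.0898). The groups were far apart in Egr1 (5.39 ± 0.23, limma adjusted p = 7.43e-06) and close together, without overlapping, in Fos. The next largest increases of the list were those of the transcription factor genes Fosb (5.06 ± 0.29) and Egr3 (4.12 ± 0.12). The value of Egr3 depended on its probe sets, since the probe set of highest mean gave 0.86.

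**Figure D4:**
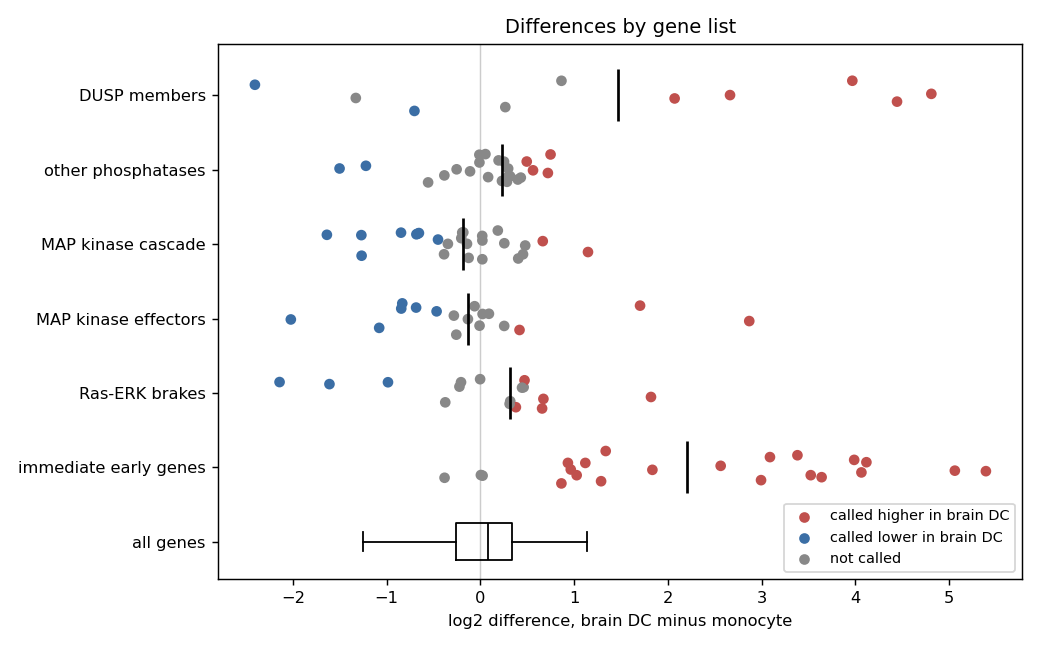
Log2 difference, brain DC minus monocyte (x axis), of each measured gene in the 10 phosphatases, the 5 other lists and all genes (y axis); points are genes coloured by call, black lines list medians, and the box for all genes spans the quartiles with whiskers at the 5th and 95th percentiles. The 10 phosphatases (median 1.47) and the immediate early genes (median 2.20) lie further right than the other lists, whose medians are between -0.18 and 0.32.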

How the data were processed

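Total RNA of 5 sorted samples was labelled and hybridised to Affymetrix arrays, 1 array per sample. The deposited table holds RMA output, as the submitters' processing notes name it, taken here as log2 values because of their range; neither its version nor which arrays were processed jointly is given in the sources used. Values were taken as measured from a baseline of each probe set, which is inferred. The medians of the arrays run from -0.05 to 0.00. Such values leave no expression level to filter on and no detection call. Of 45101 probe sets, 64 controls were left out, and 34945 had 1 symbol, 932 several and 9160 none in the platform annotation. Probe sets of a gene were averaged, giving 18193 genes.

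Brain DCs were tested against monocytes by limma's moderated test (R 4.3.3, limma 3.58.1, 3 residual degrees of freedom, no covariate), with Benjamini-Hochberg adjustment over all genes, or over all probe sets for single probe sets. With 2 and 3 arrays, the smallest p of an exact permutation test is 0.1. The members, gene lists and tests were chosen with earlier results of these data known. Named genes were the 10 phosphatases, up to 3 called genes with the largest increase and 3 with the largest decrease of each list, Mapk8, Mapk14, Egr1, Fos, and the 3 nearest patterns of the most raised and most lowered phosphatase; cell type markers named beside them, and single members of the counts, were chosen after their values were seen. Some genes of the rule and lists are not reported here. The planned comparison of protein sequences was not run, and the test of unequal probe sets was added after the data were seen. On data simulated with the fitted spread (18193 genes, 5 draws, 200 changed genes each), calls were made for 65.0% of genes given a log2 change of 1 and for 97.8% of those given 2, and 6.11% of calls were unchanged genes. These shares need not hold for the data, where 3068 genes were called higher and 3083 lower. The simulated noise was also independent between genes. Alternatives were other normalisation, other probe set rules, a robust variance model, the replicate number as a block, and each array left out.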

Additional observations from a re-analysis of the deposited data

How the results depend on the processing

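None of the 10 phosphatase genes changed direction under any alternative that gave it a value. Dusp1, Dusp2, Dusp5, Dusp10 and Dusp16 kept their call under all of them, with limma adjusted p of at most 0.0329 (Dusp1 without brain DC replicate 2). Dusp7 kept it except where every probe set had to be called. The count of lower phosphatases was 1 with quantile normalisation, 1 with probe sets ending in plain _at (Dusp7 then has no value), 1 when every probe set of a gene had to be called (Dusp7 then falls out), and 1 to 3 with an array left out. Dusp3 was called higher with the median over its probe sets (0.68, limma adjusted p = 0.00514). With plain _at probe sets, 1 cascade kinase, 1 effector and 3 brakes were higher. With the probe set of highest mean, 1 immediate early gene was lower. With an array left out, the higher counts were 1 to 2 for cascade kinases, 2 to 4 for brakes and 1 to 3 for other phosphatases. Mapk8 turned sign at -0.018 with array medians set to 0, -0.025 with the median over probe sets, -0.091 with the probe set of highest mean, and between -0.018 and 0.061 with an array left out. The causes of these shifts were not tested, beyond the smaller number of probe sets or arrays. A design with 1 brain DC array assumes that the lone array varies like the others.

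The replicate numbers in the titles are not said to pair arrays. The deviations of same-numbered arrays from their group means had an r over genes of 0.045 and 0.088 for numbers 1 and 2. Brain DC replicate 1 and monocyte replicate 3, which differ in number, had an r of 0.053. With 2 brain DC arrays the deviations mirror each other, so these values cannot decide whether arrays were paired. With the replicate block, 5 phosphatases were higher and 3 lower, the third being Dusp6 (-2.01), which then rests on monocyte replicates 1 and 2 alone. The block gave 3 higher brakes and 2 higher other phosphatases, and 2513 higher and 3006 lower genes in all. Mef2c, Ptprr and Mapk14 lost their calls under the block.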
